A study of Mus musculus with 30 samples.

Results

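The genes described here are 35 genes that mark or serve the proximal tubule of the kidney: its transporters, endocytosis receptors, brush border peptidases, metabolic enzymes and the factor Hnf4a. They were listed by name, and each was read from the probe set annotated to that symbol alone with the highest mean over all arrays. Of the 35, 34 had such a probe set, out of 18193 genes read in the same way, and Ggt1 was not analysed here. Male C57BL/6 mice, 8 to 10 weeks old, gave RNA of 4 tissues (brain, heart, kidney, vessel), which was hybridised to Affymetrix whole-genome mouse arrays. Mice received angiotensin II, the peptide that raises blood pressure and drives sodium retention and aldosterone release, from an osmotic pump at 1500 ng/kg/min for 1, 3 or 7 days. The day 0 mice had no angiotensin II, and the labels do not say whether they carried a pump. Kidney, the tissue of interest, had 2 arrays at each of days 0, 1, 3 and 7, labelled as biological replicates. Heart had 3 arrays a day, brain 2 at days 0, 3 and 7, and vessel 1 a day. Whether 1 mouse gave several of the organs is not in the labels.

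The proximal tubule is the first segment after the glomerulus and takes back most of the filtered salt, water, phosphate, glucose, amino acids and small proteins. Its cells run on mitochondrial and peroxisomal oxidation, make glucose and ammonia, and change in character along their length, so that early and late parts use different transporters. Hnf4a and the HNF1 factors are transcription factors known to keep this cell type's genes on. In whole-kidney RNA, fewer proximal tubule cells and less RNA of a gene per cell cannot be told apart.

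The genes marked the kidney arrays as their label requires. On every kidney array all 34 exceeded that array's 40th percentile of intensity, against 13 on every heart array, 14 on every brain array and 21 on every vessel array. In limma with Benjamini-Hochberg adjustment over 14826 genes, untreated kidney was above untreated heart for 34 of 34, where 27.0% of all genes were. The median difference was 5.87 on the log2(intensity + 16) scale, the scale of all log2 values below. Against untreated brain 33 of 34 were higher, where 33.7% of 15036 genes were, with a median of 5.42. Genes entered these tests if above the 40th percentile on at least 2 arrays of either tissue. The 34 were listed as kidney genes and could enter through kidney alone, so these counts describe the list and do not support it. The largest differences from heart were those of Fbp1, fructose bisphosphatase of gluconeogenesis (8.50 ± 0.60, SE), Miox, the inositol oxygenase (8.07 ± 0.48), and Cyp2j5, a cytochrome P450 of arachidonic acid (8.02 ± 0.37). Their median intensities over the heart arrays were 15.0, 21.5 and 7.24, with median array percentiles of 35.2 or lower, so these differences are limited by weak heart signals and the added 16, and their order carries no meaning. Against brain the same genes had the largest differences, 6.77 ± 0.66 for Fbp1, 6.79 ± 0.53 for Miox and 6.98 ± 0.41 for Cyp2j5. Without brain day 0 replicate 1, which read high for kidney genes, they were 8.59, 8.32 and 8.10, with the same limit. The smallest differences from heart belonged to the water channel Aqp1 (0.89 ± 0.19), the aminopeptidase Anpep (2.13 ± 0.16) and Slc51a (2.61 ± 0.12). Aqp1 read 1499 to 1623 on the untreated heart arrays and 2609 and 3216 on the untreated kidney arrays, and it is known from capillary endothelium. Bcat1, a branched-chain aminotransferase also used by neurons, was the gene not higher than in brain, at -0.67 ± 0.37 with an adjusted p of 0.117, and at -0.05 (adjusted p = 0.919) without brain day 0 replicate 1. Before it came the bicarbonate cotransporter Slc4a4 (1.52 ± 0.24) and the amino acid carrier Slc7a8 (1.89 ± 0.17).

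Markers of other tissues were high on some arrays, and their source was not tested. On the kidney arrays, the 6 adipocyte markers tested, Ucp1 and Cidea of brown fat among them, summed to 1932 and 2161 intensity units at day 0. They summed to 14638 and 16059 at day 1, to 2013 and 27219 at day 3, and to 2187 and 2854 at day 7. Both day 1 arrays and day 3 replicate 2 thus stood apart for all 6. Adrenal markers stood out on day 0 replicate 2 and day 3 replicate 2, where Star read 769 and 1467 against 47.8 to 61.9 on the other 6 arrays. The 11 adrenal markers summed to 4994 and 9094 there and to between 521 and 607 on the others. Day 1 replicate 2 had the lowest correlations with the other kidney arrays, from 0.978 to 0.985 across genes. Array medians were alike, from 35.2 to 37.8 over the 30 arrays, and precision here is limited by how few arrays each group held.

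**Figure D1:**
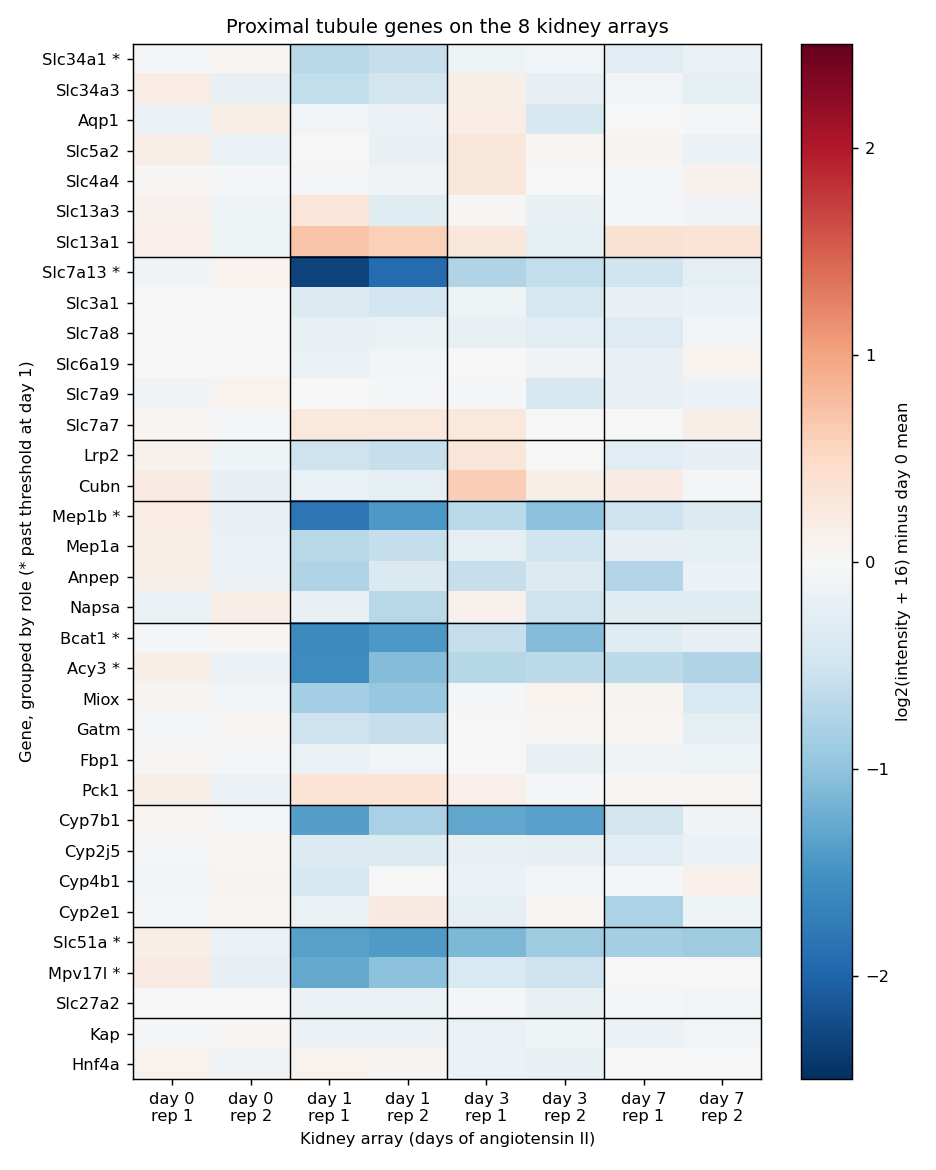
Each cell is the log2(intensity + 16) of a gene (vertical axis, grouped by role) on a kidney array (horizontal axis, days of angiotensin II and replicate) minus the mean of the 2 day 0 arrays. An asterisk marks the 7 genes past the threshold at day 1, whose day 1 cells are the darkest blue of their line, while Slc13a1 reads above day 0 on both day 1 arrays and Hnf4a stays pale.

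After 1 day of angiotensin II, 7 of the 34 proximal tubule genes fell, a share of 20.6%, and none rose. Of the 14214 genes tested in kidney, 0.500% passed in either direction, 0.239% as falls and 0.260% as rises, at an adjusted p under 0.05 (limma, Benjamini-Hochberg), which is 34 falls and 37 rises. The 7 genes therefore made up 20.6% of all falls. The 34 genes were listed with earlier results of these data known, so these shares are a description and not independent support. They were the late-tubule amino acid exchanger Slc7a13, the peptidase Mep1b, the aminotransferase Bcat1, the organic solute transporter subunit Slc51a, the aminoacylase Acy3, the membrane protein Mpv17l and the phosphate cotransporter Slc34a1. The day 1 change had a negative sign for 28 of the 34 and a positive sign for 6, with a median of -0.27 against 0.01 for all genes tested. At an unadjusted p under 0.05 stood 19 of the 34, against 2311 of the 14214 genes. Both day 1 arrays lay below both day 0 arrays for 23 of the 34 genes, where 22.7% of all genes did so, and above them for 3 genes, where 26.2% did.

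The response was uneven across the segment's genes. At day 1, 7 genes were at least 2-fold lower (Cyp7b1 in place of Slc34a1), 10 lay between 0.2 and 1 log2 units lower, 14 lay within 0.2 of day 0 and 3 lay more than 0.2 higher. The count of 7 falls rested on single arrays: leaving out replicate 1 of day 0 brought it to 0, leaving out replicate 2 of day 0 to 1, leaving out replicate 2 of day 1 to 4, and leaving out either of the day 7 arrays to 2. In such fits a group left with 1 array is assumed to vary like the others. With the adipocyte median of each array as a covariate, an alternative chosen after the data were seen, it was 0. All 7 genes kept a negative sign there and in each of the other 18 alternatives. Their day 1 arrays both lay below both day 0 arrays, so leaving out an array or changing the added value could not turn the sign.

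Among the transporters of ions, phosphate, sugar and water, 1 of 7 fell and none rose. Slc34a1, the main sodium-phosphate cotransporter of the brush border, read 4974 and 5376 at day 0, 3172 and 3475 at day 1, 4754 and 4919 at day 3, and 4309 and 4623 at day 7. Both day 1 arrays were the lowest of the 8, and no other group overlapped them. The day 1 change was -0.64 ± 0.09 (SE), 1.56-fold lower, with an adjusted p of 0.048, the call closest to the threshold, which held in 6 of 19 alternatives. Its relative Slc34a3 read 296 and 223 at day 0 and 161 and 184 at day 1, a change of -0.54 ± 0.17 that did not pass (adjusted p = 0.197). The sulfate transporter Slc13a1 went the other way, at 2445 and 2026 at day 0 and 3652 and 3370 at day 1. Its change of 0.65 ± 0.17 was the largest positive one of the 34 and did not pass (adjusted p = 0.148).

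None of the glucose, water, bicarbonate and dicarboxylate carriers passed at day 1. The bicarbonate carrier Slc4a4 read 5202 and 5005 at day 0 and 4999 and 4804 at day 1, a change of -0.06 ± 0.11. Other Slc4a4 probe sets with strong signals gave -0.25, -0.23 and -0.08. Slc5a2, the sodium-glucose cotransporter of the early tubule, read 2678 and 2099 at day 0, 2358 and 2097 at day 1, 2877 and 2462 at day 3, and 2483 and 2149 at day 7. Each later day had an array inside or within a few units of the day 0 range, and the day 1 change was -0.09 with a 95% interval from -0.44 to 0.26. Aqp1 read 2609 and 3216, then 2775 and 2632, 3278 and 2204, and 2912 and 2798, with a day 1 interval from -0.54 to 0.34. Slc13a3, a dicarboxylate carrier, read 2435 and 2081 at day 0, 2797 and 1822 at day 1, 2312 and 1984 at day 3, and 2190 and 2116 at day 7. Its 2 day 1 arrays lay on either side of all the others, and the interval ran from -0.46 to 0.46.

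Of the 6 amino acid transporters, 1 fell at day 1 and none rose. That gene was Slc7a13, which exchanges aspartate, glutamate and cystine in the last part of the proximal tubule and, in mice, is more abundant in males. Slc7a13 read 5722 and 6457 at day 0, 1209 and 1586 at day 1, 3625 and 3952 at day 3, and 4285 and 5109 at day 7. The day 1 arrays were far below the rest, and the arrays of days 3 and 7 lay between them and day 0 without overlap. The day 1 change was -2.12 ± 0.15, 4.35-fold lower, with a limma adjusted p of 0.0098. Slc3a1, the heavy chain that carries both Slc7a13 and Slc7a9 to the membrane, read 7561 and 7610.4 at day 0 and 6023 and 5466 at day 1, a change of -0.40 ± 0.12 that did not pass (adjusted p = 0.174). Slc7a9, which serves cystine uptake earlier in the tubule, read 4543 and 5196 at day 0 and 4872 and 4699 at day 1, inside the day 0 range. Slc6a19, the carrier of neutral amino acids, read 1307 and 1335 at day 0, 1175 and 1267 at day 1, 1323 and 1245 at day 3, and 1167 and 1412 at day 7, with a day 1 interval from -0.37 to 0.14.

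Neither endocytosis receptor passed the test. Lrp2, or megalin, read 1317 and 1118 at day 0, 848 and 808 at day 1, 1500 and 1211 at day 3, and 1004 and 1056 at day 7. The day 1 arrays were the lowest, and the change of -0.54 ± 0.13 missed the threshold (adjusted p = 0.119). A second Lrp2 probe set gave -0.62. Cubn, its partner cubilin, read 2788 and 2114 at day 0 and 2167 and 2082 at day 1, a change of -0.19 ± 0.19.

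Of the 4 brush border and lysosomal peptidases measured, 1 fell. Mep1b, the beta subunit of meprin, read 2628 and 2027 at day 0, 649 and 841 at day 1, 1450 and 1125 at day 3, and 1605 and 1814 at day 7. All treated arrays were below both day 0 arrays, the day 1 pair most. The day 1 change was -1.62 ± 0.19, 3.08-fold lower, with a limma adjusted p of 0.030. The alpha subunit Mep1a read 3695 and 2912 at day 0 and 2016 and 2177 at day 1. Its change had the same sign and a smaller size, -0.64 ± 0.14, and did not pass (adjusted p = 0.095). Anpep (-0.56 ± 0.22) and the aspartic peptidase Napsa (-0.44 ± 0.24) did not pass either.

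Among the 6 enzymes of sugar, creatine and amino acid metabolism, 2 fell. Bcat1 read 219 and 234 at day 0, 64.8 and 73.5 at day 1, 146 and 97.9 at day 3, and 181 and 195 at day 7. The treated arrays were all below day 0, and day 1 did not overlap any other day. The change was -1.51 ± 0.16, 2.85-fold lower, with an adjusted p of 0.023. The other Bcat1 probe sets, with weak mean signals of 36.8 and 49.8, gave -0.31 and -0.18. Acy3, which deacetylates mercapturic acids, read 6479 and 5307 at day 0, 1967 and 2760.2 at day 1, 3579 and 3721 at day 3, and 3720 and 3481 at day 7. Its day 1 change was -1.33 ± 0.17, 2.51-fold lower (adjusted p = 0.037), and the later arrays stayed within 3481 to 3721, below both day 0 arrays.

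Miox, the first enzyme of inositol breakdown, read 10737 and 9742 at day 0, 5667 and 5330.1 at day 1, 9984 and 10939 at day 3, and 10735 and 7803 at day 7. The day 1 pair stood alone below the rest, and the change of -0.89 ± 0.15 missed the threshold (adjusted p = 0.062). Gatm, the first enzyme of creatine synthesis, read 2649 and 2751 at day 0 and 1871 and 1810 at day 1, a change of -0.55 ± 0.10 (adjusted p = 0.082). The gluconeogenic enzymes had small changes of opposite sign. Fbp1 read 12159 and 11578 at day 0, 10548 and 11324 at day 1, 11790 and 10471 at day 3, and 11110 and 10924 at day 7, with a day 1 interval from -0.33 to 0.09. Pck1, the enzyme that commits to gluconeogenesis, read 5248 and 4309 at day 0, 6020.2 and 6012 at day 1, 5216 and 4615 at day 3, and 4847 and 4823 at day 7. Its day 1 arrays were the highest of the 8, and the change of 0.34 ± 0.11 did not pass (adjusted p = 0.216). Pck1 is also a fat gene, at 2190 on the vessel array with the lowest value. With the adipocyte covariate its day 1 change was 0.48 (limma adjusted p = 0.342), but day and fat signal cannot be told apart in that comparison. Cyp2e1, Slc27a2, Slc4a4, Aqp1 and Cyp4b1 also read high on the vessel arrays, with medians of 5280, 2432, 1546, 1517 and 698. With the covariate their day 1 changes were -0.15, -0.02, 0.15, 0.31 and -0.25 in that order. None passed, and the same limit holds.

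None of the 4 cytochrome P450 genes passed. Cyp7b1, an oxysterol hydroxylase with higher levels in male kidneys, read 3508 and 3317 at day 0, 1297 and 1930 at day 1, 1368 and 1315 at day 3, and 2480.2 and 3203 at day 7. It was low on all 4 arrays of days 1 and 3 and nearer to day 0 by day 7, with changes of -1.10 ± 0.19 at day 1 (adjusted p = 0.067) and -1.34 ± 0.19 at day 3 (adjusted p = 0.265). A second Cyp7b1 probe set gave -1.25 and -1.36. Cyp2j5 differed by -0.34 ± 0.08 at day 1 on the probe set used (adjusted p = 0.125) and by -0.83 on another. Cyp2e1 and Cyp4b1, which metabolise small solvents and fatty acids, had day 1 values of 0.03 ± 0.24 and -0.20 ± 0.15.

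Of the 3 genes of lipid handling and bile acid transport, 2 fell. Slc51a, a subunit of the basolateral organic solute and bile acid transporter, read 245 and 189 at day 0, 74.0 and 70.6 at day 1, 90.8 and 109.6 at day 3, and 112 and 108 at day 7. All 6 treated arrays were below both day 0 arrays. The day 1 change was -1.39 ± 0.13, 2.62-fold lower, with an adjusted p of 0.014, and the changes were -1.0 ± 0.13 at day 3 (adjusted p = 0.265) and -0.87 ± 0.13 at day 7 (adjusted p = 0.645). Mpv17l, a mitochondrial and peroxisomal membrane protein, read 901 and 677 at day 0, 314 and 376 at day 1, 594 and 539 at day 3, and 783 and 773 at day 7. Its day 1 change was -1.15 ± 0.15, 2.22-fold lower (adjusted p = 0.038), and its day 7 arrays lay within the day 0 range. The fatty acid transporter Slc27a2 differed by -0.15 ± 0.08 at day 1 and did not pass.

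Hnf4a read 3926 and 3515 at day 0, 3954 and 3917 at day 1, 3337 and 3281 at day 3, and 3695 and 3743 at day 7. The groups of days 0, 1 and 7 were close together, and both day 3 arrays read below all others. The day 1 change of 0.08 ± 0.08 had a 95% interval from -0.11 to 0.28. Another Hnf4a probe set with a strong signal gave -0.12 at day 1, -0.14 at day 3 and -0.18 at day 7. Weaker Hnf4a probe sets gave 0.18 and -0.05 at day 1. Kap, the kidney androgen-regulated protein, read 19657 and 20219.8 at day 0, 18008 and 18117 at day 1, 17812 and 18459 at day 3, and 17900 and 18977 at day 7. These values lay close to the highest intensity of each array, 19665 to 21335, so the day 1 change of -0.14 ± 0.08 was read near the top of the scale.

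**Figure D2:**
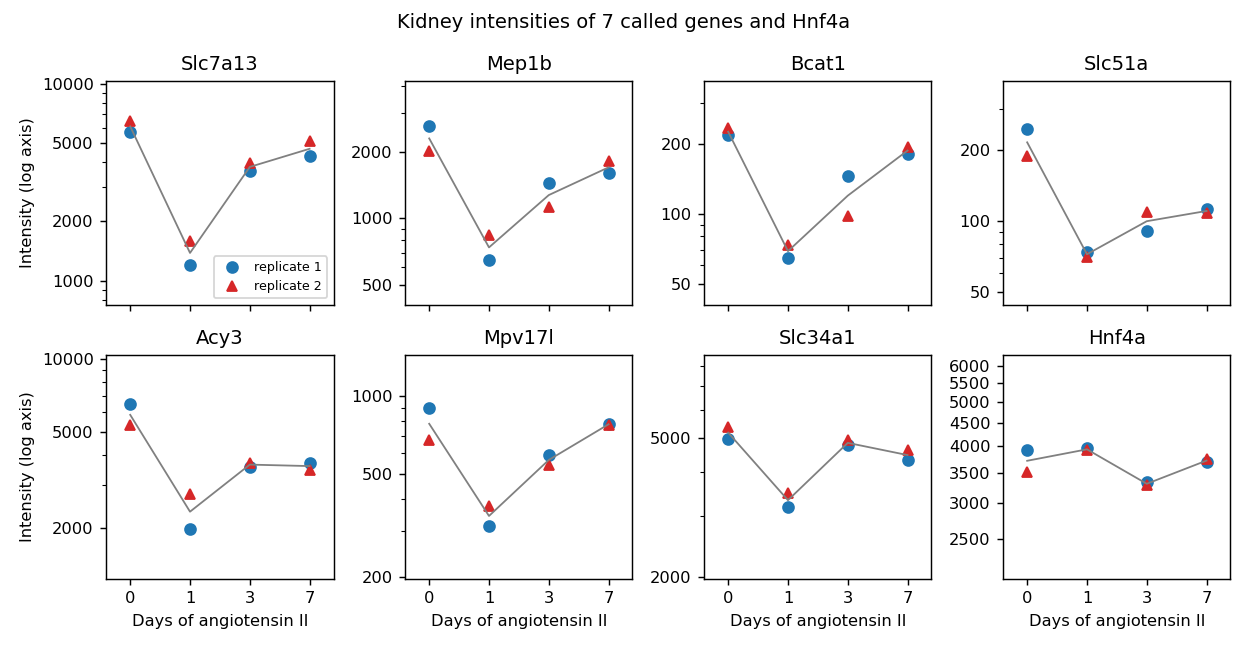
Intensity (log axis) of the 7 genes that fell at day 1, and of Hnf4a, against days of angiotensin II, where each point is an array, its shape gives the replicate and the line joins the means of the 2 arrays. The 7 genes have their lowest pair at day 1 and higher pairs at days 3 and 7, while Hnf4a reads from 3281 to 3954 throughout.

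For 27 of the 34 genes, RefSeq's GRCm38.p6 table held a promoter window, 4 of them among the 7 genes that fell. The 250 bases before each start were searched on both strands for GTTAAT and CAAAGT, words that do not contain each other. The first is an arm of the paired site of HNF1 factors, and CAAAGT is part of the repeat that Hnf4a binds. GTTAAT or its reverse complement was in 5 of the 27 (18.5%), Slc34a1, Slc7a7, Pck1, Miox and Hnf4a, against 7.49% of 27025 genes. CAAAGT was in 7 of the 27 (25.9%), Slc4a4, Slc7a7, Slc3a1, Lrp2, Mep1a, Acy3 and Slc51a, against 14.1%. Of the genes that fell and had a window, Bcat1 held no match, while Slc34a1 (chr13:55399398-55399621, plus strand), Acy3 (chr19:3986320-3986569, plus strand) and Slc51a (chr16:32487880-32488129, minus strand) held a match. The upstream sequences of these 3 genes are shown, since they fell at day 1 and held a match. They run 5′ to 3′ along the gene, with matches on either strand in capitals. That of Slc34a1 stops at the annotated gene start after 224 bases.
Slc34a1: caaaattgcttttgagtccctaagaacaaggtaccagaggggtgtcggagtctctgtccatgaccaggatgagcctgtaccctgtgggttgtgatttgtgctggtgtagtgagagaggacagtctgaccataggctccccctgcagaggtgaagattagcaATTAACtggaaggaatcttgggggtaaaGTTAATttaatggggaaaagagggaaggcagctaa
Acy3: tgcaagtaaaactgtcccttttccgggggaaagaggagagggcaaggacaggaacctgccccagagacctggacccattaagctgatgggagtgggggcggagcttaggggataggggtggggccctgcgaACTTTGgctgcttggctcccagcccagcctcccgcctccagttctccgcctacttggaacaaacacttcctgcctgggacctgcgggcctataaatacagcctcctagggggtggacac
Slc51a: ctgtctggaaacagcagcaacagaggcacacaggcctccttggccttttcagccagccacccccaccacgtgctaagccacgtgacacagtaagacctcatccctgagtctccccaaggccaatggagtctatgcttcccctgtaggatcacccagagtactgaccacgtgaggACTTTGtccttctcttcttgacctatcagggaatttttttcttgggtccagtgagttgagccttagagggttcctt
A match is a run of letters and not a measured binding site, and matches were also found in genes that did not pass at day 1, such as Pck1, Slc7a7 and Slc4a4.

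At day 3 and at day 7 no proximal tubule gene passed against day 0, and 0% of the 14214 genes did in either comparison (limma, Benjamini-Hochberg). At an unadjusted p under 0.05 stood 9 of the 34 at day 3, against 1202 of all genes, and 5 at day 7, against 950. The median change of the 34 was -0.11 at day 3 and -0.16 at day 7. All 7 genes that fell at day 1 were below both day 0 arrays on each of the day 3 arrays. On both day 7 arrays 6 of 7 were, Mpv17l being the exception. All 7 also had both day 3 and both day 7 arrays above both day 1 arrays, as had 16 of the 34 genes at day 3, where 21.9% of all genes did, and 18 at day 7, where 23.4% did. The 7 were picked for low day 1 arrays and high day 0 arrays, which favours both of these orders, so the orders are given as a description. Over the 34 genes, both arrays lay below both day 0 arrays for 16 at day 3, where 16.3% of all genes did, and above them for 0, where 20.4% did. At day 7 they lay below for 18, where 15.3% of all genes did, and above for 1, Slc13a1, where 21.2% did. These comparisons share the day 0 arrays.

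The later level of Slc7a13 also passed against day 1. It rose by 1.74 ± 0.15 from day 1 to day 7 (adjusted p = 0.045), where 0.00704% of all genes rose, so it was the single gene of the 14214 to do so. Of all genes 0.0352% fell and 0.0422% passed in either direction. From day 1 to day 3 its difference was 1.44 ± 0.15 (adjusted p = 0.052), where 0% of all genes rose and 0.0422% passed in either direction. It was also the single gene of the 34 past the F test over the 3 contrasts with day 0 (adjusted p = 0.046), which 0.0563% of all genes passed. Without either day 0 array, day 1 replicate 2 or either day 7 array, no member passed from day 1 to day 7. The other 6 genes that fell had differences from day 1 to day 7 of 0.43 to 1.26, and none passed.

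The 2 day 3 arrays differed in fat and adrenal signal, and in other lists too. Day 3 replicate 2 had the highest adipocyte and adrenal sums of the kidney arrays, and day 3 replicate 1 had neither. Replicates 1 and 2 of day 3 had medians relative to day 0 of -0.19 and 0.72 for fibroblast genes. They were -0.74 and 0.16 for leukocyte and -0.04 and 0.75 for tubular injury genes. With 1 array on each side, the effect of fat or adrenal signal was not tested by this pair. Between these 2 arrays, the 7 genes differed by a median of 0.05, replicate 2 over replicate 1, from -0.51 for Bcat1 to 0.23 for Slc51a, and the 34 genes by a median of -0.17. Slc7a13 read 3952 on replicate 2 and 3625 on replicate 1. With the adipocyte median as a covariate the day 1 change of Slc7a13 was -2.21 (adjusted p = 0.085), that of Slc51a -1.56 (adjusted p = 0.111) and that of Bcat1 -1.13 (adjusted p = 0.111). Those of Lrp2, Slc3a1 and Slc34a3 shrank from -0.54, -0.40 and -0.54 to -0.30, -0.16 and -0.28. Napsa went from -0.44 to 0.01, and Slc5a2, Slc4a4, Aqp1, Slc7a9, Cubn and Fbp1 also turned from negative to positive. Cyp2e1 turned from positive to negative. The negative changes of Anpep (-0.56 to -0.70), Gatm (-0.55 to -0.59), Slc34a1, Acy3, Miox, Cyp4b1 and Kap grew. Without the arrays high in adrenal markers, 5 of the 34 genes fell at day 1, in a fit where a single day 0 array was the control and the other groups supplied the spread. Since both day 1 arrays were high in fat markers and neither day 0 array was, day and fat signal cannot be told apart within that comparison.

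**Figure D3:**
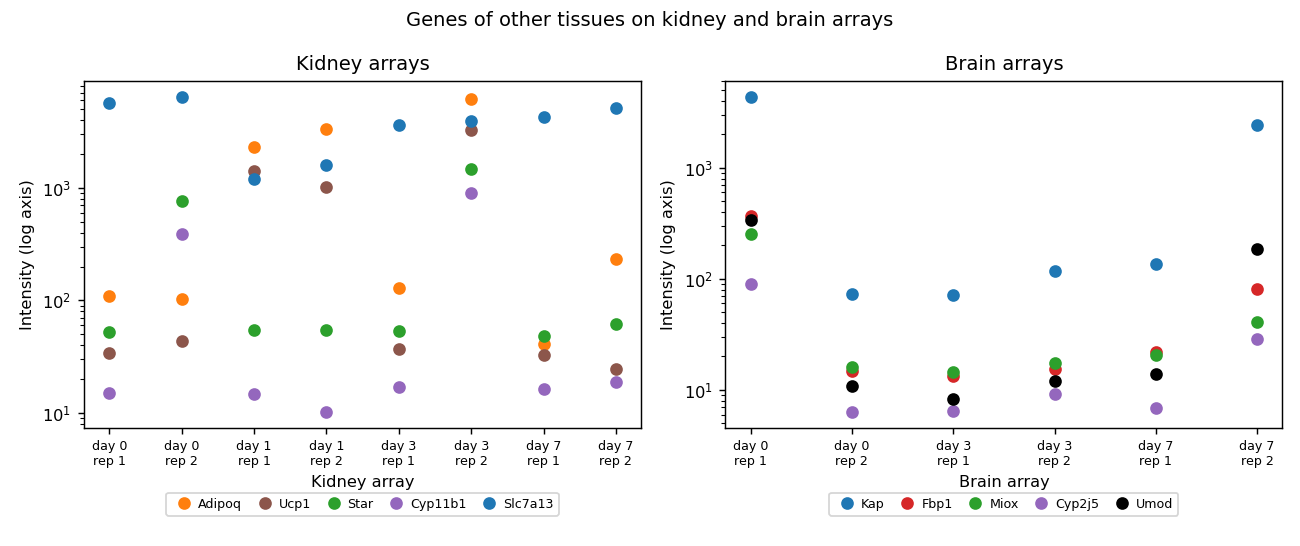
Intensity (log axis) of fat genes (Adipoq, Ucp1), adrenal genes (Star, Cyp11b1) and Slc7a13 on the 8 kidney arrays (left), and of proximal tubule genes and the loop of Henle gene Umod on the 6 brain arrays (right), where each point is an array. Adipoq reads 2318, 3335 and 6176 on both day 1 arrays and day 3 replicate 2, and Kap reads 4362 and 2435 on brain day 0 replicate 1 and day 7 replicate 2.

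Genes of the same segment outside the 34 also held calls. Of 55 other proximal tubule genes tested at day 1, 3 fell and 1 rose, where 0.239% and 0.260% of all genes did. Their median was -0.33. This list and those below were also chosen with earlier results of these data known. Those that fell were Slc22a30 (-1.99 ± 0.28, adjusted p = 0.048) and Slc22a19 (-1.24 ± 0.18, adjusted p = 0.048), organic anion transporter relatives, and Aadat, an aminotransferase of kynurenine (-0.94 ± 0.09, adjusted p = 0.018). Cyp4a14, a fatty acid hydroxylase controlled by PPAR alpha, rose by 2.70 ± 0.22 (adjusted p = 0.010). It read 603 and 905 at day 0, 4801 and 4995 at day 1, 2666 and 1805 at day 3, and 1974 and 1871 at day 7, so the treated arrays were all above day 0. Of 12 androgen-responsive or male-biased kidney genes, 5 were among the 34, and Slco1a1, Cyp4a12a, Cyp2j13 and Acsm3 were among the 55. Of the 12, 1 fell, Slc7a13 itself. A negative sign was held by 11, where 6873 of the 14214 genes had one. The median was -0.84, with -1.05 on day 1 replicate 1 and -0.40 on replicate 2. Of 9 genes of gluconeogenesis and ammonia production, Pck1 and Fbp1 of the 34 among them, none passed. G6pc, Slc38a3 and Slc37a4 were also among the 55. At an unadjusted p under 0.05 stood 6 of the 9, where 2311 of the 14214 genes did. A positive sign was held by 7, where 7341 of the 14214 had one. The median of 0.34 was the value of Pck1 itself. The glutamine transporter Slc38a3 (0.73, adjusted p = 0.115) and Glud1 (0.51, adjusted p = 0.148) had the smallest p.

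Outside the proximal tubule no list of another nephron segment held a call. At day 1, 0.239% of the 14214 genes fell and 0.260% rose, and 2311 were at an unadjusted p under 0.05. None of 11 genes of the thick ascending limb and distal tubule passed at day 1, with a median of -0.19 and 3 at an unadjusted p under 0.05, led by Calb1 (-0.55, adjusted p = 0.093) and Kl (-0.55, adjusted p = 0.112). None of 11 collecting duct genes passed, with a median of 0.14 and 4 at an unadjusted p under 0.05, led by Scnn1b (0.67, adjusted p = 0.082) and Foxi1 (0.59, adjusted p = 0.10). The podocyte, endothelium and fibroblast lists, of 6, 8 and 8 genes, had medians of 0.19, 0.13 and -0.04 and no call, with 0, 1 and 0 genes at an unadjusted p under 0.05. The day 1 arrays differed here: replicates 1 and 2 had medians of 0.31 and 0.07 for podocyte, 0.18 and 0.12 for endothelium and -0.59 and 0.24 for fibroblast genes. Of 13 tubular injury genes 1 rose, the keratin Krt18 (0.80 ± 0.10, adjusted p = 0.038), which read 190.0 and 202 at day 0 and 365 and 342 at day 1. The 13 had a median of 0.36, with a positive sign for 9 and 3 at an unadjusted p under 0.05. Lcn2, a secreted injury marker, read 56.5 and 84.0 at day 0 and 289 and 2879 at day 1 and did not pass (adjusted p = 0.156). Havcr1, the classical injury marker of the proximal tubule, read 36.3 and 38.8, then 24.4 and 32.6. These Havcr1 values lay near or below the median intensity of their arrays, a weak signal. None of 9 leukocyte genes passed, with 3 at an unadjusted p under 0.05, and the neutrophil genes S100a8 (2.19, adjusted p = 0.059) and S100a9 (1.95, adjusted p = 0.065) had the smallest p.

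**Figure D4:**
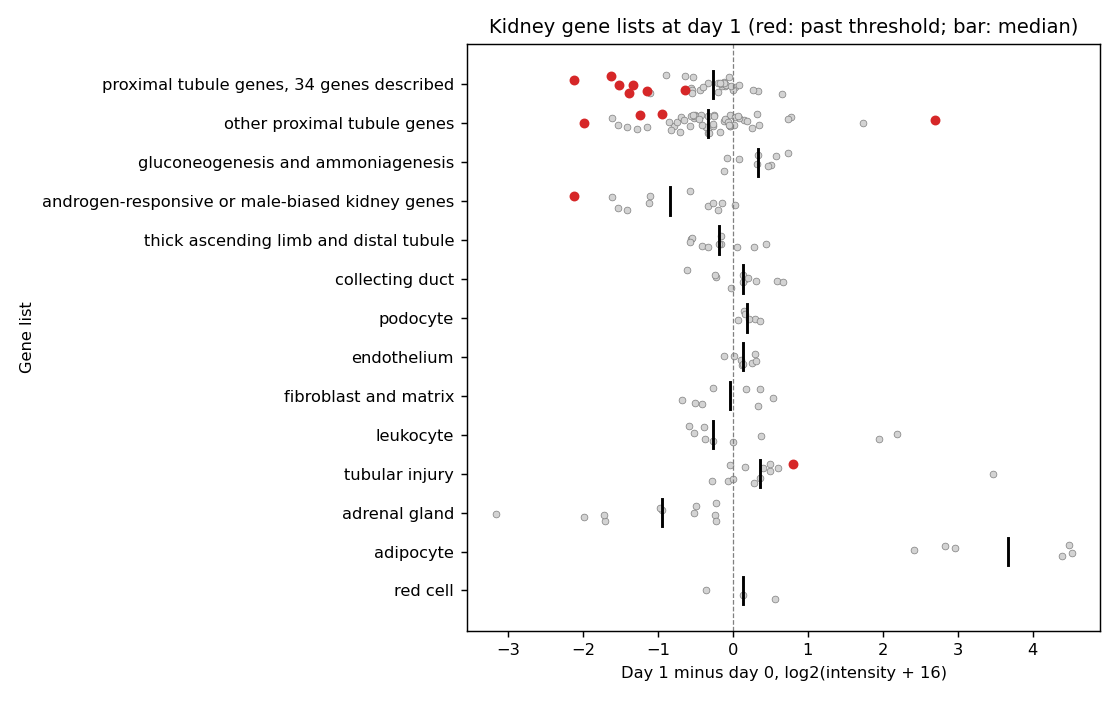
Difference between day 1 and day 0 in kidney, log2(intensity + 16), for each tested gene (point) of each list (vertical axis), where red points passed the threshold and black bars are medians. The proximal tubule genes reach from -2.12 to 0.65 with a median of -0.27, and the 6 adipocyte genes lie between 2.42 and 4.52 with none past the threshold.

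Outside the kidney, kidney genes were read on some arrays of other organs. Brain day 0 replicate 1 was the highest brain array for 27 of the 34 genes, with Kap at 4362, Fbp1 at 365 and Miox at 252, against 72.8, 14.9 and 16 on the other untreated brain array. Umod, a gene of the loop of Henle, read 335 and 10.9 on the same arrays. Without that array, 33 of the 34 genes were above brain, with a median of 6.17, in a fit where untreated brain was a single array and the other groups supplied the spread. Brain day 7 replicate 2 read 2435 for Kap and 184 for Umod. In heart, Kap read 759 on day 0 replicate 1 and 71.9 to 299 on the other 11 arrays.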

How the data were processed

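RNA of 30 samples was measured on Affymetrix arrays, and the deposited values are linear intensity values per probe set, made by the authors with software that the submitters' processing notes name as Affymetrix Expression Console. For its algorithm, version and settings, nothing was given in the sources used here. Array medians from 35.2 to 37.8 show a common scale, and they were not normalized again. The arrays hold 45101 probe sets, of which 64 are controls, not used here, and 34945 carry a single symbol. Each gene was read from its probe set with the highest mean log2(intensity + 16), and the added 16 understates changes of weak signals. The 8 kidney arrays were fitted by group means in limma 3.58.1 (R 4.3.3) over the 14214 genes above the array's 40th percentile on at least 2 kidney arrays. Tests were moderated and two-sided, with Benjamini-Hochberg adjustment over all genes tested and a threshold of 0.05. The 3 tissues were compared in a fit of 26 arrays, over genes above that percentile on at least 2 arrays of either tissue compared. The code was tested on simulated data. P-values measure the spread between samples labelled as biological replicates.

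The genes and lists were chosen with earlier results of these data known. Per-array values are given for genes past a threshold, the 8 largest and 4 smallest changes, and Hnf4a, Lrp2, Slc34a1, Slc5a2, Kap and Pck1. Other lists name up to 4 genes past the threshold, or 2 with the smallest p. Further members were added for their role or their sign after their values were seen. Groups share replicate numbers, but same-numbered kidney arrays deviated together with correlations from -0.09 to 0.24, so the numbers were not taken to pair the samples. Alternatives were the added value, the filter, the mean of probe sets, quantile normalization, trended variances, the samples fitted, a replicate block, and leaving out each array or the arrays with adrenal markers. An adipocyte covariate was added after the data were seen. Promoters came from RefSeq's GRCm38.p6 table.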

Additional observations from a re-analysis of the deposited data

Results flagged for a closer look

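Slc7a13 differed between days: its level at day 7 was 1.74 above that at day 1 on the log2(intensity + 16) scale, a difference that passed limma's threshold (adjusted p = 0.045). The arrays of vessel, with 1 a day, were in no test. On them Kap read at least 0.91 above the day 0 array on each of the 3 treated arrays, at 220 on day 0, then 592, 427 and 862. Gatm, at 15.6 on the day 0 array and 34.1, 72.2 and 53.9 on the treated ones, read at least 0.66 above day 0. Miox, at 16.9, then 34.9, 30.9 and 34.7, read at least 0.51 above it. Both day 0 values were below the 40th percentile of their array, so these differences are from a signal with no clear level. Umod, a kidney gene of another segment, read 9.53, 53.7, 40.8 and 116 on the same arrays, and its part in these values was not tested.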

How the results depend on the processing

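With 2 arrays a group, counts of calls moved between alternatives. Of the 7 genes that fell at day 1, Slc7a13 and Slc51a each passed in 16 of 19 alternatives, Mep1b in 12, Bcat1 in 11, Acy3 and Mpv17l in 8 and Slc34a1 in 6, and the cause of lost calls was not tested. The number of members called at day 1 (7) was 3 with no filter, 4 with 1 added, 2 with the replicate block, 0 with the adipocyte covariate and 0 to 7 with single arrays left out. All genes called at day 1 (71) were 20, 31, 21 and 0 under the same settings, 238 in the joint fit of 3 tissues, and 0 and 8 when replicate 1 or 2 of day 0 was left out. The F test (1 member) gave 0 with no filter, 1 added, the mean of probe sets, quantile normalization, the covariate or the adrenal arrays left out, 3 with trended variances, 5 in the joint fit, and 0 to 3 with single arrays left out. It was not run on only the groups compared, since it spans all days. Against day 0, the joint fit called 3 members at day 3 and 1 at day 7, and leaving out single arrays 0 to 1 and 0. From day 1 to day 3 (0), 1 was called with trended variances, 1 with the replicate block and 0 to 1 with single arrays left out. From day 1 to day 7 (1), 0 were called with no filter, 1 added, the mean of probe sets or the covariate, 2 in the joint fit, 3 with trended variances, only the groups compared or the adrenal arrays left out, and 0 to 2 with single arrays left out. Against heart all 34 passed throughout, and against brain 32 to 33.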

Other observations

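Bcat1, which fell at day 1 in kidney, read 17.0, 18.4, 70.1 and 126 on the vessel arrays of days 0, 1, 3 and 7. On the heart arrays it read from 14.1 to 14.3 at day 0 and 46.4, 50.9 and 15.0 at day 1. At day 3 it read 19.8, 36.8 and 47.7 and at day 7 17.8, 16.1 and 16.4 in heart, and no test was made on either tissue.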
